A study of Mus musculus with 3 samples.

Results

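The promoters of imprinted genes that are methylated on the maternal chromosome were examined at 10 mouse loci, Peg3, Kcnq1ot1, Mest, Plagl1, Grb10, Nnat, Zrsr1, Impact, Peg10 and Nap1l5. A locus was taken as every probe within 10 kb of a fixed point on mouse build mm9. That gave 277 of the 409597 placed probes on the array, at 9 of the 10 loci. Kcnq1ot1 had 0 probes within 10 kb, so its promoter was not measured here. Probes whose starts lay at most 500 bp apart were joined into tiled regions, of which 17 of the array's 28880 fell in the windows. At each of the 9 loci the region holding the point, or the nearest to it, is called the point region, and the 8 others in the windows are called flanking regions. The gene names rest on those points, because the files place probes by position and name no gene.

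The DNA came from the frontal cortex of naive C57BL/6 males aged 2 months, pooled from 3 mice per sample, and was run on 3 arrays. Methylated DNA immunoprecipitation (MeDIP) was used, in which sonicated DNA is captured with an antibody against 5-methylcytosine and compared with the DNA before capture. There was 1 group and no second condition. The titles number the arrays 1 to 3, whereas the descriptions give the same replicate number to each, so the SDs cover the spread between arrays whether or not every array had a pool of its own. The mice were inbred and pooled, and the tissue was used whole. Methylation of the maternal chromosome in every cell and methylation of both chromosomes in some cells therefore cannot be told apart, and the tissue label could not be checked with DNA arrays.

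Imprinted genes are expressed from the chromosome of a single parent. At the loci studied here the mark is laid down in the growing oocyte, where transcription through the promoter guides the methyltransferase DNMT3A and its partner DNMT3L. After fertilisation the zinc finger protein ZFP57 binds a methylated hexamer, TGCCGC, and with TRIM28 keeps the mark through the erasure that the rest of the genome undergoes. In somatic tissue the maternal promoter is then methylated and silent, and the paternal copy is unmethylated and can be transcribed. Several of these genes are retrogenes that lie inside an intron of another gene. Many act in growth, metabolism or the brain.

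The antibody is directed against methylated cytosine, and the promoter sequences are shown with every CG in capitals. Capture at cytosines outside CG was not tested. The 250 bases before the annotated start were taken from RefSeq promoters on GRCm38.p6, in the gene's own direction, and 8 of the 10 loci matched, with 11 windows. Whether a window lies inside a tiled region was not analysed, because the builds differ. Shown are the windows of Peg3, Mest (the second of its 3 windows), Plagl1, Nnat, Zrsr1 and Nap1l5. In the tests below, the point region was called higher than the array median at all of these loci except Nap1l5. At Nap1l5 the region mean was not called, but the probes nearest the point were called higher.
Peg3: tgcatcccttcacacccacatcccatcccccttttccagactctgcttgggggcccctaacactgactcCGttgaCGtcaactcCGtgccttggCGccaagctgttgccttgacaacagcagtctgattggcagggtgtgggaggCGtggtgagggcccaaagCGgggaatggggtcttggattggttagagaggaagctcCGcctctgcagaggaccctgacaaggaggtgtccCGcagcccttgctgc
Mest: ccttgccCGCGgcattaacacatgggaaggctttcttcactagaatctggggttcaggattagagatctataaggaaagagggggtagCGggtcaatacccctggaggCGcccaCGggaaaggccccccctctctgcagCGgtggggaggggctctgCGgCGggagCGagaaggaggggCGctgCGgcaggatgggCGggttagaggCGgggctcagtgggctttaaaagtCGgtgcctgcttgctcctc
Plagl1: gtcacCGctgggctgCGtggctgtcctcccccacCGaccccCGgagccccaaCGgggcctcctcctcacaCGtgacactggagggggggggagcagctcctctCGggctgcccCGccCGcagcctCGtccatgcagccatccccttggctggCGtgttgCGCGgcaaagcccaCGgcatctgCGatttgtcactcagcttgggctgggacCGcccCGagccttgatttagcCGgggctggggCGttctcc
Nnat: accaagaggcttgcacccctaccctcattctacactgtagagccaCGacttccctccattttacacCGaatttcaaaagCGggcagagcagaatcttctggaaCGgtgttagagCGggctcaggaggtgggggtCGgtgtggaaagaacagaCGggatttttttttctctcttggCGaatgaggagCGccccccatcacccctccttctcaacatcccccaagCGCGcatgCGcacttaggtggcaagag
Zrsr1: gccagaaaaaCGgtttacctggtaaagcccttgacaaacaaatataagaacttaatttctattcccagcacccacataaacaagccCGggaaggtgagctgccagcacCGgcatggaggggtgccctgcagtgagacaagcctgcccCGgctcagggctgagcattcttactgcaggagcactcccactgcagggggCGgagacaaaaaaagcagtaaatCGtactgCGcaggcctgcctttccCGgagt
Nap1l5: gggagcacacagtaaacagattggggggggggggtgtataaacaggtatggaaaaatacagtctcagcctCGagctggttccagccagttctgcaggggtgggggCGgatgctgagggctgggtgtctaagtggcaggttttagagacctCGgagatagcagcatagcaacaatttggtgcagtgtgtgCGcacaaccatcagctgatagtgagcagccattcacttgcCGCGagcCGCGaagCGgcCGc

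These windows held 8 CpGs in Peg3, 14 in Mest, 19 in Plagl1, 12 in Nnat, 8 in Zrsr1 and 10 in Nap1l5. Over all 32851 promoter windows of the same length the median was 6. The median over the 11 windows of the loci was 10, and 10 of the 11 had more than 6. Grb10 had the richest window, with 40 CpGs, more than in 98.7% of all windows, and a second window with 8. Kcnq1ot1, which had no probes, had 5. The ZFP57 hexamer TGCCGC, searched on both strands, occurred in 4 of the 11 windows (a pair of overlapping Mest windows, Plagl1 and Nap1l5) and in 8.68% of all windows. A match describes letters and is not a measured binding site, and these windows are counted beside all promoters without a test.

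All values below are log2 ratios of bound over input signal, minus the median of the array's probes. A value of 0 is thus the array's median probe and not an unmethylated reference, and the scale gives no percentage of methylated DNA. No adjustment for CpG content was made, so a difference in ratio between loci or sides cannot be read as a difference in methylation level. Between pairs of arrays, Pearson's r over all probes was 0.73 to 0.77 (probes are not independent replicates). Bound signal was well above background for 66.0%, 47.4% and 51.1% of probes on arrays 1, 2 and 3, and input signal for 83.3%, 69.0% and 69.4%. Of the 277 probes at the loci, 62.8% were above background in both channels on all arrays, against 42.4% of all probes. The arrays shared a dye orientation, so dye and enrichment cannot be told apart, and their number limits the precision of every value. Calls are limma tests against 0 with Benjamini-Hochberg adjusted p under 0.05 over all features of the array.

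The first question was whether the point regions of these loci were enriched for methylated DNA. Of the 9 point regions 7 were higher than the array median, namely those of Grb10, Peg10, Mest, Zrsr1, Plagl1, Peg3 and Nnat, and 0 were lower. Impact and Nap1l5 were called in neither direction. Over all tiled regions 28.0% were called higher and 38.1% lower. The median of the 9 point regions was 1.43, against -0.11 over all regions, and on arrays 1, 2 and 3 it was 1.59, 1.51 and 1.33 against -0.11, -0.08 and -0.11. Each of the 7 lay above 95.7% or more of all regions. They were called higher under every alternative setting, and the median of the 9 was 0.86 with normexp background correction, against -0.03 over all regions. With each array's mode as zero it was 0.71 against -0.82, since that setting moves every value down.

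**Figure D1:**
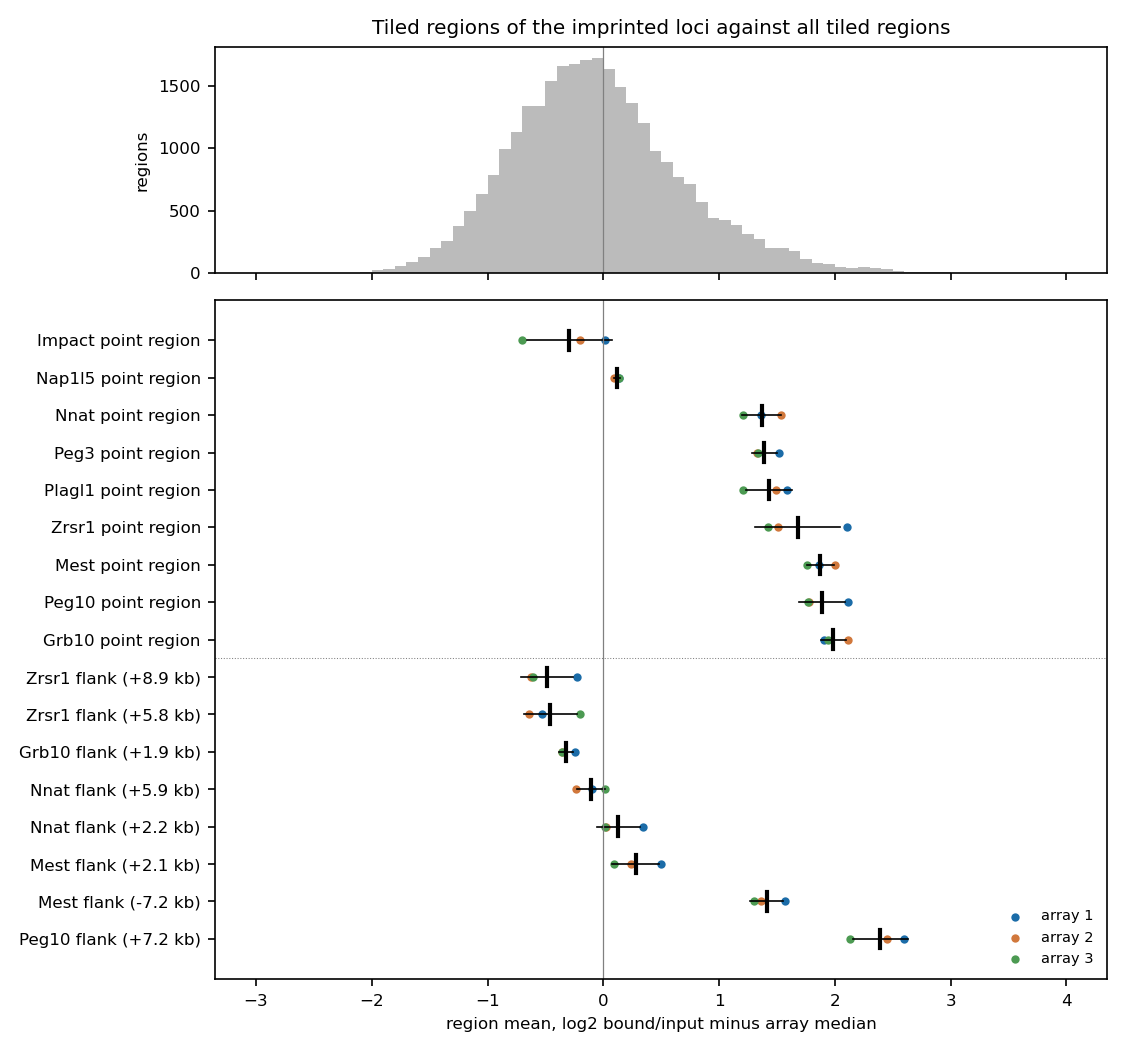
Lower panel, mean log2 ratio of bound over input (horizontal axis, array median at 0) of the 17 tiled regions, with 1 point per array, a tick for the mean and a line for the SD, and upper panel, a histogram of all 28880 regions on the same axis. The 7 called point regions have means of 1.37 to 1.99, and those of Impact and Nap1l5 lie at -0.29 and 0.12.

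Grb10 encodes an adaptor protein that restrains signalling from the insulin receptor, and in the brain it is expressed from the paternal chromosome through its own promoters. Its point region, of 11 probes at chr11:11926108-11927317, read 1.91, 2.11 and 1.94 on arrays 1, 2 and 3. All 3 arrays were close together, with a mean of 1.99 ± 0.11 (SD, n = 3), or 3.96-fold, and an adjusted p of 1.32e-07 by limma. It was the highest of the point regions and lay above 98.9% of all regions.

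Peg10, a gene derived from a retrotransposon and needed for the placenta, shares its promoter area with Sgce, which encodes a membrane glycoprotein. Its point region, of 24 probes at chr6:4696122-4698428, read 2.12, 1.77 and 1.77, a mean of 1.89 ± 0.20 (adjusted p = 2.62e-07, limma). Of its 24 probes 21 were called higher, against 22.4% of all probes on the array. Mest encodes a protein of the hydrolase fold family and is known for maternal care and growth phenotypes. Its point region, of 15 probes at chr6:30686876-30688248, read 1.87, 2.00 and 1.76, a mean of 1.88 ± 0.12 (adjusted p = 1.97e-07, limma), and 14 of its 15 probes were called higher. In both regions every array was far above the median.

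Zrsr1 is a retrogene related to a splicing factor and lies inside Commd1. Its point region, of 15 probes at chr11:22872000-22873431, read 2.10, 1.51 and 1.43. Array 1 was higher than the other 2, and the mean was 1.68 ± 0.37 (adjusted p = 1.49e-06, limma). Plagl1 encodes a zinc finger transcription factor that restrains growth. The 27 probes of its point region, at chr10:12809482-12811775, gave 1.59, 1.50 and 1.20, a mean of 1.43 ± 0.20 (adjusted p = 1.65e-06, limma), and 24 of the 27 were called higher.

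Peg3 encodes a large zinc finger protein that is expressed in the brain, next to the imprinted gene Usp29. Its tiled region did not hold the point but began 979 bp above it, with 17 probes at chr7:6682979-6684337. It read 1.52, 1.32 and 1.33, a mean of 1.39 ± 0.11 (adjusted p = 1.38e-06, limma). Nnat encodes neuronatin, a small membrane proteolipid of developing neurons, and lies inside Blcap. Its point region, of 16 probes at chr2:157384629-157386074, read 1.36, 1.54 and 1.21, a mean of 1.37 ± 0.17 (adjusted p = 1.95e-06, limma). The means of Peg3, Nnat and Plagl1 differed from each other by less than the SD of Plagl1, and the differences between loci were not tested.

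Impact encodes a regulator of translation that is abundant in neurons and lowers the activity of the kinase GCN2. Its region of 11 probes lay from 1039 to 23 bp below the point and read 0.02, -0.20 and -0.70. The arrays spread about as widely as at Zrsr1, and the mean was -0.29 ± 0.37 (adjusted p = 0.0909, limma). Of the 11 probes 0 were higher and 2 were lower than the median, against 22.4% and 23.6% of all probes on the array. Without replicate 1 the mean was -0.45 with an adjusted p of 0.0103 and the region was called lower. With all 3 arrays it was called lower with normexp (-0.14), with the mode as zero (-1.01) and over probes with input above background (-0.44). Only the side below the point was tiled, so the signal at and above the point was not measured.

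Nap1l5, a retrogene of the nucleosome assembly protein family, is expressed in the brain and lies inside Herc3. Its tiled region began 960 bp above the point, with 16 probes at chr6:58856960-58858328. It read 0.13, 0.09 and 0.14, the closest arrays of any point region, and its mean was 0.12 ± 0.03 (adjusted p = 0.376, limma). Of its 16 probes 5 were higher and 5 lower, against 22.4% and 23.6% of all probes on the array. The mean near 0 thus joins opposite signs. When probes with either channel near background on any array were left out, the mean of the other 8 was 0.64 (adjusted p = 2.51e-06), with the mode as zero it was -0.60, and as a median over probes it was -0.01. The filter on both channels leaves out probes with dim bound signal. Under it 51.6% of all regions were called higher, and the median over all regions was 0.30.

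The next question was how the signal ran along each locus. Of the 277 probes 154 were called higher (55.6%) and 26 lower (9.39%), against 22.4% and 23.6% of all probes, and their median was 1.07 against -0.02. In the point regions 108 of 152 probes were higher and 8 lower, with a median of 1.58. In the flanking regions 46 of 125 were higher and 18 lower, with a median of 0.32. The count of lower probes depended on the setting, at 10 without replicate 2, 14 without replicate 3, 14 with loess and 57 with the mode as zero. Under the same settings 14.3%, 15.2%, 18.0% and 41.1% of all probes were lower. Of the 26 lower probes 12 had bound signal not well above background on any array, so their values are bounds only. Over the whole array the same held for 35544 of the 96477 lower probes. Probes that lie within a fragment's length of each other share DNA fragments and are not independent.

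**Figure D2:**
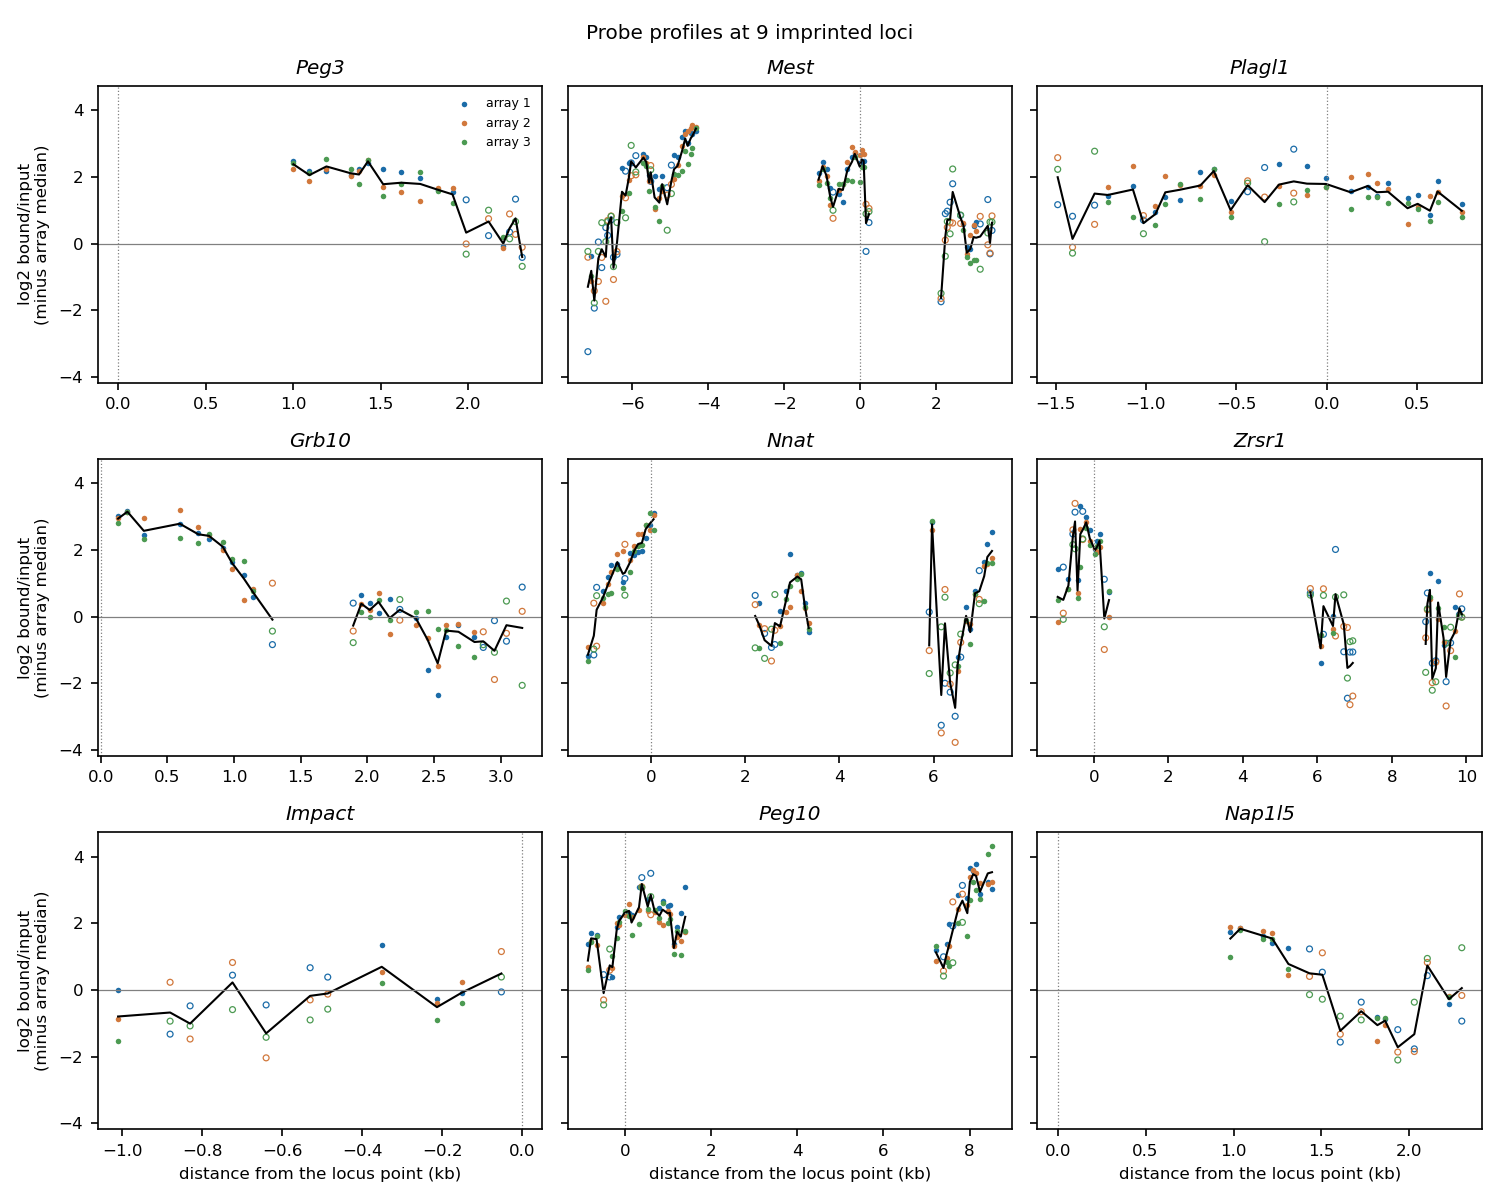
Log2 ratio of each probe (vertical axis, array median at 0) against distance from the locus point (horizontal axis, kb) at the 9 loci with probes, with 1 point per array, open where a channel was near background on any array, and a line through the means. High stretches run through 7 point regions, Impact scatters around 0, and Nap1l5 is high only in its first probes.

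Higher probes formed unbroken blocks. The longest run covered 18 neighbouring probes over 1638 bp in the Peg10 point region, 13 over 1232 bp in Mest and 13 over 1063 bp in Plagl1. It covered 12 over 1021 bp in Nnat, 11 over 958 bp in Peg3, 11 over 884 bp in Zrsr1 and 10 over 1061 bp in Grb10. Among regions with at least 10 probes, 9 of 16 at the loci held a run of 10 or more, all 7 called point regions among them, against 703 of 23138 (3.04%) on the whole array. The length of 10 was chosen after the values were seen, and these counts describe the same calls as the region means. At Nap1l5 the first 4 probes, from 982 to 1220 bp above the point, read 1.54 to 1.84 and formed a run of 287 bp. Further from the point the values there fell to -1.72 at 1934 bp.

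Plagl1 was the most even point region. The SD of its probe means was 0.45, lower than in all but 7.8% of regions, whose median was 0.85. Its probes ranged from 0.14 at 1406 bp below the point to 2.17 at 625 bp below it. Grb10 was uneven. Its values ran from 3.15 ± 0.01 at 200 bp above the point, an 8.87-fold ratio, through 2.10 at 915 bp to 0.74 at 1142 bp and -0.09 at 1288 bp. Nnat ran the other way, from -1.14 at 1342 bp below the point through 1.20 at 844 bp below to 2.92 ± 0.29 at 52 bp above it. The highest probe was the last of the tiled region at Nnat, so nothing beyond it was measured there. At Grb10 a single probe lay on the point's side of the highest, 130 bp above the point, and read 2.94.

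Such steps were tested as the mean of the probes on the lower-coordinate side of each region's midpoint minus the mean on the upper-coordinate side. All 17 regions could be tested, and 5 were higher on the lower-coordinate side and 7 on the upper, against 25.9% and 26.7% of all regions. Among the point regions 3 were higher on the lower side, 3 on the upper side and 3 were not called. With loess the count of 5 was 3, Peg3 being among those lost.

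**Figure D3:**
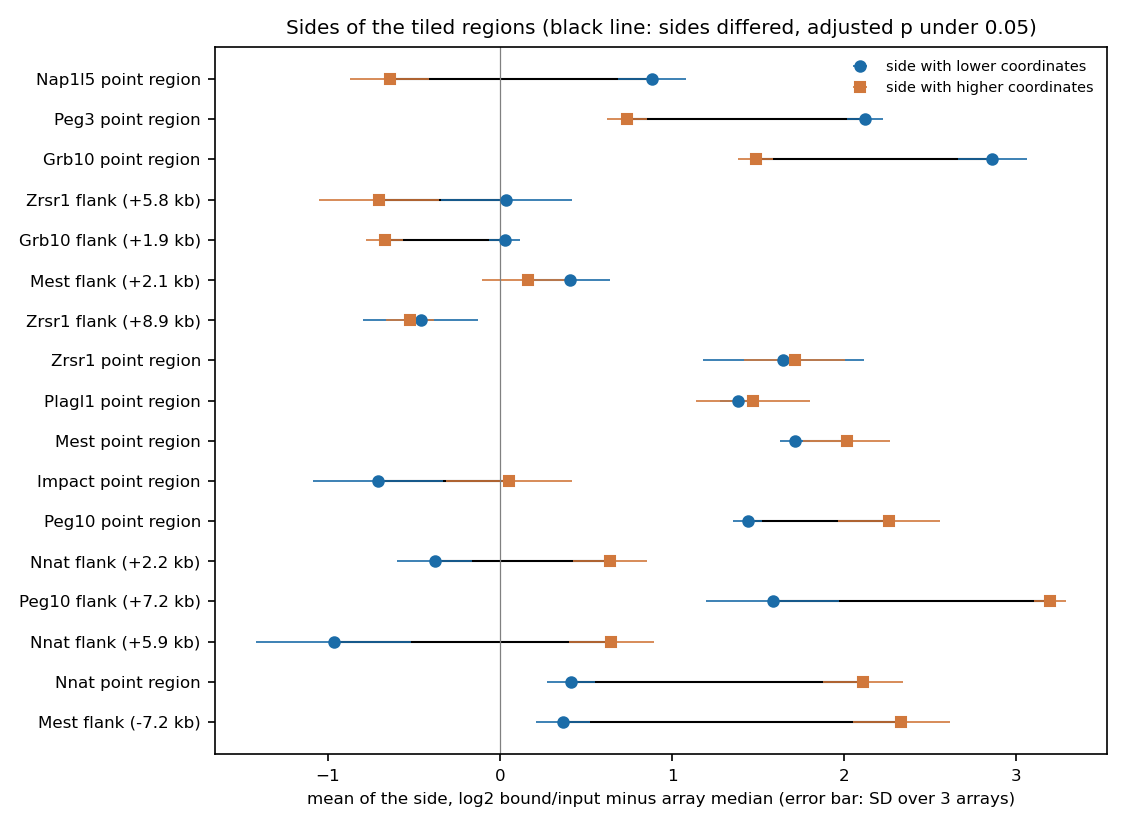
Mean log2 ratio (horizontal axis, array median at 0) on the lower-coordinate (circles) and upper-coordinate (squares) sides of each tiled region, with the SD over 3 arrays and a black line where the sides differed. Peg3, Grb10 and Nap1l5 are higher on the lower side, and Nnat, Peg10 and Impact on the upper side.

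The Grb10 sides stood at 2.86 ± 0.20 and 1.49 ± 0.10, and the difference was 1.48, 1.51 and 1.14 on the 3 arrays (mean 1.38 ± 0.21, adjusted p = 1.90e-04, limma). At Nnat they stood at 0.41 ± 0.14 and 2.11 ± 0.23, a difference of -1.70 ± 0.21 (adjusted p = 5.47e-05, limma), with each array between -1.91 and -1.49. At Nap1l5 the sides had opposite signs, 0.88 ± 0.20 and -0.64 ± 0.23, a difference of 1.52 ± 0.43 (adjusted p = 1.82e-04, limma). At these 3 loci the difference had the same sign on every array. Their input signal differed between the sides by 1.24 at Grb10, -1.51 at Nnat and 0.06 at Nap1l5. With loess the steps were 0.83 (adjusted p = 0.00309, limma), -0.94 (adjusted p = 9.11e-04) and 1.58 (adjusted p = 4.33e-05).

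Peg3 had sides of 2.12 ± 0.10 and 0.74 ± 0.12, a difference of 1.38 ± 0.05 (adjusted p = 1.54e-04, limma). Its input signal also differed between the sides, by 3.02 against 4.40 in the bound signal, the largest input step of the 17 regions, and with loess, which removes dependence on brightness, the difference was 0.23 (adjusted p = 0.344). The step was 1.16 with normexp (adjusted p = 1.43e-05), and 0.90 both without probes near background in either channel (adjusted p = 5.32e-05) and over probes with input above background (adjusted p = 7.29e-04). Peg10 had 1.44 and 2.26 (difference -0.82 ± 0.21, adjusted p = 0.00473, limma). Its bound signal differed by 0.04 between sides and its input by 0.86, and with loess the Peg10 step was -1.07 (adjusted p = 3.84e-04). At Impact the sides were -0.71 and 0.05 (difference -0.76 ± 0.08, adjusted p = 0.00607, limma), with an input difference of 0.01.

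The sides of Plagl1 (-0.08, adjusted p = 0.747), Zrsr1 (-0.07, adjusted p = 0.80) and Mest (-0.30, adjusted p = 0.236) were not called by limma. With normexp Mest (-0.30) and Zrsr1 (-0.39) were called, as they were over probes with input above background (-0.62 and -0.81). Of the point regions with a called step 4 matched a RefSeq strand, Peg3, Grb10 and Nap1l5 on the minus strand and Nnat on the plus strand. In 4 of these 4 the higher side was the one further along the direction of transcription. This was seen after the values were known and carries no test. No share over all regions was computed for it, so the count cannot show a pattern of these loci. Peg10 and Impact, also called, had no strand entry, and the Peg3 step was not called with loess.

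The shape of the regions was also compared as probes within 200 bp of the midpoint against probes more than 500 bp from it. Of 15 regions tested 4 were higher in the centre and 2 at the edges, against 17.0% and 32.4% of all regions. The clearest central peak was at Zrsr1, with 2.21 in the centre and 0.39 at the edges, a difference of 1.44, 2.42 and 1.61 on the 3 arrays (mean 1.82 ± 0.52, adjusted p = 2.09e-04, limma). Peg10 had a central excess of 0.99 ± 0.20 (adjusted p = 0.00482, limma), which without replicate 2 was 0.89 with an adjusted p of 0.0524. The excess at Peg3, 0.88 (adjusted p = 0.00903), was 0.27 (adjusted p = 0.170) without probes near background in either channel. Nap1l5 was lower in the centre than at the edges, by -1.40 ± 0.27 (adjusted p = 6.24e-04, limma).

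Flanking regions showed whether the signal was limited to the point regions. Of the 8 flanking regions 2 were higher than the array median, 3 lower and 3 not called, and their median was 0.01. These shares, 25% higher and 37.5% lower, were near the 28.0% and 38.1% of all regions. The highest of all 17 regions was a flanking one, 7.2 to 8.5 kb above the Peg10 point, with 14 probes at chr6:4704196-4705548. It read 2.60, 2.45 and 2.13, a mean of 2.39 ± 0.24 or 5.25-fold (adjusted p = 6.98e-08, limma), above 99.6% of all regions. Its sides stood at 1.59 and 3.20 (difference -1.62 ± 0.29, adjusted p = 8.65e-05, limma), and its highest probe was 3.53 ± 0.69. Whether it belongs to Peg10 or to a feature of its own was not tested.

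The other flanking region called higher lay 7.2 to 4.3 kb below the Mest point, with 32 probes at chr6:30680804-30683703. It read 1.57, 1.36 and 1.30, a mean of 1.41 ± 0.14 (adjusted p = 1.39e-06, limma). Its signal was concentrated on the side nearer Mest, at 2.33 ± 0.28 against 0.36 ± 0.16 (difference -1.97 ± 0.37, adjusted p = 3.38e-05, limma). There 22 neighbouring probes over 2000 bp were called higher, the longest run at these loci, with a top probe of 3.45 ± 0.05, or 10.9-fold. Its central excess of 1.13 (adjusted p = 0.00202, limma) was -0.06 without probes near background in either channel. On the other side of the Mest point, 2.1 to 3.5 kb above it, the region read 0.50, 0.24 and 0.10 and was not called (0.28 ± 0.20, adjusted p = 0.0667, limma).

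At Zrsr1 the flanks lay 5.8 to 7.0 kb and 8.9 to 9.9 kb above the point. They read -0.53, -0.64 and -0.20 (mean -0.46 ± 0.23, adjusted p = 0.00725, limma) and -0.23, -0.62 and -0.61 (mean -0.49 ± 0.22, adjusted p = 0.00480, limma). Both calls rested on replicate 2, without which they were -0.37 (adjusted p = 0.0986) and -0.42 (adjusted p = 0.0547), and in the nearer flank 7 of 9 probes had bound signal not well above background on any array. The farther flank was also not called with loess (-0.21), and was 0.04 without probes near background in either channel. The Grb10 flank, 1.9 to 3.2 kb above the point, read -0.25, -0.36 and -0.36 (mean -0.32 ± 0.06, adjusted p = 0.0281, limma), and was not called without replicate 2 (-0.30, adjusted p = 0.176) or without replicate 3 (-0.30, adjusted p = 0.0983), nor with loess (-0.10) or the authors' values (-0.05). At Nnat the flanks 2.2 and 5.9 kb above the point were not called, at 0.13 ± 0.19 and -0.11 ± 0.12. The farther Nnat flank hid a dip, with -1.24 in its centre and 1.38 at its edges (difference -2.62 ± 0.68, adjusted p = 4.36e-05, limma).

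A contrast that does not depend on the array's zero is the region minus all other probes within 10 kb of its midpoint. It could be made for 5 point regions and 8 flanks, and over these 13 regions 6 were higher and 6 lower than their surroundings, against 30.8% and 31.1% of all regions tested. The point regions of Grb10 (2.31 ± 0.16, adjusted p = 2.58e-06, limma), Zrsr1 (2.22 ± 0.30, adjusted p = 4.33e-06), Nnat (1.37 ± 0.25, adjusted p = 5.66e-05) and Mest (0.83 ± 0.18, adjusted p = 0.00111) stood above their neighbours on every array. For Grb10 the contrast was 2.16, 2.47 and 2.30, with the point region separated from its flank by less than 1 kb. When starts up to 1000 bp apart were joined, both became 1 region and the contrast was 0.32 (adjusted p = 0.118).

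The Peg10 point region was the exception, since it lay below its flank by 0.51 (adjusted p = 0.0165, limma). That difference was 0.42 with an adjusted p of 0.135 without replicate 2. The Mest flank above the point lay below its surroundings, at -1.28 ± 0.10 (adjusted p = 5.57e-05, limma), and the Mest flank below the point stood above them by only 0.38 (adjusted p = 0.0489). The latter call was lost without replicate 1 (0.36, adjusted p = 0.107), without replicate 2 (0.43, adjusted p = 0.124) or without replicate 3 (0.35, adjusted p = 0.155). The contrasts within a locus share probes and are not independent of each other.

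The last comparison separated the channels, since a ratio can rise through more bound or less input signal. The brightness of a single channel was not calibrated between probes, so it cannot be read as an amount of DNA. In each of the 7 called point regions the bound signal was above the array's median probe, from 1.89 ± 0.10 at Zrsr1 to 3.90 ± 0.48 at Grb10. Their input signal ranged from -0.20 ± 0.33 at Zrsr1 to 1.51 ± 0.34 at Grb10, and only that of Zrsr1 was below the median. Grb10 and Nnat were bright in both channels, with an input above that of 96.4% and 93.3% of all regions. With loess their ratios were 1.18 and 0.84 in place of 1.99 and 1.37, and both were still called higher (adjusted p = 6.74e-06 and 6.80e-05, limma). The order of the point regions thus depended on the normalization, and with loess Zrsr1 was highest at 1.76. At Impact both channels lay near the median, at -0.01 ± 0.39 for bound and -0.13 ± 0.17 for input. Bound signal at Nap1l5 was 0.61 ± 0.12 with an input of 0.08 ± 0.06.

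**Figure D4:**
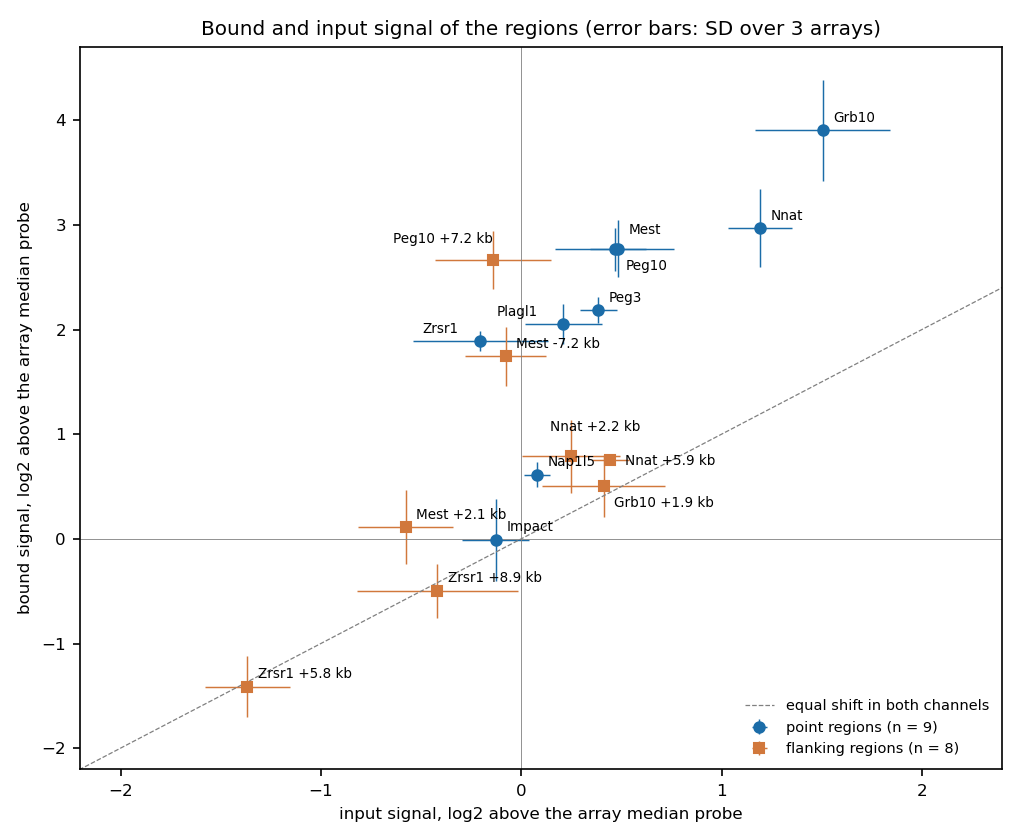
Bound signal (vertical axis) against input signal (horizontal axis) of the 17 regions, both as log2 above the array's median probe, with SDs over 3 arrays and a dashed line of equal shift. The 7 called point regions and the called flanks of Mest and Peg10 lie well above the line, with Grb10 and Nnat farthest to the right.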

How the data were processed

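The data were 3 two-colour tiling arrays of 1 group, with input DNA in Cy3 and bound DNA in Cy5 per the labels, both after whole-genome amplification, which can distort representation. The deposited scanner files hold intensities that, per the file headers, Feature Extraction 10.7.3.1 had background-subtracted and dye-normalized, on a design placed on mm9. Their log10 ratio column is red over green per the file headers and matched the ratio used here (r = 1). The log2 ratios in the authors' deposited value table tracked bound over input (r above 0.999), had medians of -0.97, and were used as an alternative. Their normalization is not given in the sources used.

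From the processed intensities, log2 of bound over input was taken. Control spots and spots carrying an outlier flag were left out, each array was centred on its median probe, and spots of a probe were averaged, without loess or quantile steps. Regions needed at least 3 probes. Each test was limma's fit of 1 group against 0 (limma 3.58.1, R 4.3.3) over all features, Benjamini-Hochberg 0.05. Recovery of calls was checked on simulated data for region values only. Centre and edges needed 2 probes each, sides 3 and surroundings 3.

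Alternatives were normexp (offset 50, on spot medians, because the files give no spot means), loess, the authors' values, the mode as zero, filters on dim probes, joining at 300 and 1000 bp, medians over probes, windows of 5 and 20 kb, and leaving out each array. All 10 loci are named by the rule that chose them, and the members and lists were chosen with earlier results of these data known. Promoter sequences and neighbouring genes come from RefSeq on GRCm38.p6 and were matched by symbol.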

Additional observations from a re-analysis of the deposited data

How the results depend on the processing

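No paired analysis was possible because there was 1 group of 3 arrays. Of the called values recomputed under alternatives, 132 of 143 for regions, 142 of 164 for local contrasts, 67 of 71 for centre minus edges and 132 of 139 for sides kept direction and call. The mode as zero moves every value of an array alike. Local contrasts, centre minus edges and sides were therefore bound to stay the same under it, and these counts include that setting. The median of the point regions (1.43) was 0.86 with normexp, 1.18 with loess, 1.69 with the authors' values, 0.71 with the mode as zero, 1.69 under either filter on dim probes and 1.73 as medians over probes. Over all regions that median (-0.11) was -0.03, -0.01, -0.11, -0.82, 0.30 (both channels above background), -0.25 (input above background) and -0.04. Lower probes (26 of 277, against 23.6% of all probes) numbered 14 with loess (18.0% of all), 11 of 265 with the authors' values (16.3%), 57 with the mode as zero (41.1%), 13 of 174 with both channels above background (22.3%) and 10 to 22 with 1 array left out (14.3% to 21.1%). Lower regions (3 of 17, against 38.1% of all regions) numbered 1 with loess (31.0%), 8 with the mode as zero (76.9%), 1 of 16 with both channels above background (22.7%), 1 as medians over probes (31.8%) and 0 to 4 with 1 array left out (31.8% to 36.5%). Regions higher on the lower-coordinate side (5) numbered 3 with loess (24.2% of all). Higher centres (4) numbered 7 with the authors' values (13.5%) and 2 of 11 with both channels above background (27.8%). Lower centres (2) numbered 5 under this filter (42.3%) and 5 with normexp (35.5%). A 5 kb window gave 3 higher and 3 lower of 10 local contrasts (29.4% and 29.1% of all), with fewer probes to compare.

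Signs turned only in values near 0 or in flanks. The farther Nnat flank was 0.16 with normexp, 0.0214 with loess, 0.381 with the authors' values and 0.82 with both channels above background. The step between sides at Plagl1 was 0.0835 with loess, 0.0465 under either filter on dim probes and -0.207 to 0.0804 with 1 array left out. At Zrsr1 it was 0.43 with loess and -0.16 to 0.11 with 1 array left out, and at its nearer flank -0.13 with the authors' values. With the mode as zero the Mest flank above the point was -0.44, the nearer Nnat flank -0.59 and Nap1l5 -0.60. With both channels above background the farther Zrsr1 flank was 0.0371 and the central excess of the Mest flank below the point was -0.0586. Joining at 1000 bp put the Grb10 flank in the point region, at 0.62 with a local contrast of 0.32. As a median over probes Nap1l5 was -0.0063. In a 5 kb window the local contrast was -0.34 for the Mest flank below the point, 0.27 for the farther Nnat flank and 0.0312 for the nearer Zrsr1 flank. The cause was not tested where no construction explains it. Bound signal not well above background on any array, at 15.9% of the loci's probes and 31.7% of all, limits low values to bounds.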

Other observations

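The tiled regions nearest to the windows gave further context. For Kcnq1ot1, the nearest lay 146.1 kb below its point (chr7:150333496-150334873, 16 probes) and read 1.42, 1.61 and 1.29, a mean of 1.44 ± 0.16 (adjusted p = 1.34e-06, limma). The nearest above lay 165.8 kb away and was called higher too, at 0.96 ± 0.25 (adjusted p = 4.24e-05). These distances are too great to stand for the Kcnq1ot1 promoter. The region 14.3 kb below the Mest point was higher, at 0.92 ± 0.19 (adjusted p = 4.35e-05, limma). The region 11.2 kb above the Nnat point, beyond its flanks, was lower than the array median, at -1.81 ± 0.13 (adjusted p = 2.63e-07, limma), with arrays between -1.94 and -1.68. That 11.2 kb above the Grb10 point was not called, at -0.04 ± 0.08. Around Impact, the regions 29.7 kb below and 33.4 kb above its point were called lower and higher, at -0.74 ± 0.19 and 0.65 ± 0.19.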
